A study of Homo sapiens with 34 samples.

Results

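The 10 genes described here build the tight and adherens junctions of epithelial cells: the claudins CLDN1, CLDN2, CLDN3, CLDN4, CLDN7 and CLDN12, occludin (OCLN), the scaffold TJP1, also known as ZO-1, and the cadherins CDH1 and CDH17. They were chosen by name and function, with earlier results of these data known, and are 10 of the 19970 protein-coding genes in the RefSeq gene table of GRCh38. For each gene every region within it or 50 kb of it was read from 4 deposited peak lists. The lists are from chromatin immunoprecipitation and sequencing in DLD1, a colorectal adenocarcinoma cell line that carries a Tet-inducible dominant negative TCF7L2. TCF7L2 is the DNA-binding partner through which β-catenin turns on Wnt-responsive genes, and its dominant negative form cannot pass on that signal. The uninduced group received no doxycycline and the induced group received doxycycline at 1 µg/mL for 24 h. Both groups carry the transgene and were grown in zeocin and blasticidin, and only the induced group met doxycycline, so the effects of the drug and of the transgene cannot be told apart. The labels do not say whether the line is a single clone. One antibody was to H3K27ac, acetylation of histone H3 that marks active promoters and enhancers, and the other to RNA polymerase II (Pol II).

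There were 2 samples for each antibody in each condition and 1 input sample per condition, sequenced as 40 to 55M single reads per sample, per the labels. A single list stands for both samples of a group. The spread between samples is therefore unknown, and none of the differences reported here could be tested. Each region carries the authors' fold enrichment over background and a −log10 q, the caller's evidence that the region is enriched. These values were used to describe and rank regions within a list, and values of both lists are given together without a test. A region is said to have a partner when it shares at least 1 bp with a region of the same mark in the other condition. The lists came from bulk chromatin, so fewer cells carrying a mark and less of it per cell cannot be told apart. Of 10 markers of colorectal epithelium, 8 had an H3K27ac region within 1 kb of a gene end in the uninduced list and 9 in the induced list, EPCAM, KRT8, CDX2 and VIL1 among them, and 8 had a Pol II region there in both. KRT20 had neither mark. Of 8 mesenchymal markers 2 (COL1A1 and DCN) had H3K27ac in the uninduced list and 3 (these and PDGFRB) in the induced list. Pol II was at 1 of these 8, COL1A1, in the uninduced list and at 0 in the induced list. VIM had neither mark. Of 5 endothelial markers 1 (PECAM1) had H3K27ac in both lists and 0 had Pol II. Of 6 immune markers 3 (CD3E, CD68 and SPI1) had both marks in both lists.

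Tight junctions are belts of membrane proteins near the apex of neighbouring epithelial cells, which limit the passage of ions and molecules between them. Claudins form the strands and set which ions pass, occludin joins the strands, and TJP1 ties them to the actin cytoskeleton. Adherens junctions lie just below and hold cells together through cadherins, whose tails bind β-catenin, the same protein that acts with TCF7L2 in the nucleus. CLDN1 and CLDN2 are known as Wnt-responsive claudins in colorectal cancer cells.

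Pol II at the start of CLDN1 and at the second start of CLDN2 was listed in uninduced cells and not in induced cells. Every other claudin, OCLN, TJP1 and CDH1 had both marks at a start or gene end in both conditions. CDH17 had neither mark at its gene ends, the only places checked for it. Starts came from RefSeq promoter entries, which matched 8 of the 10 genes with 14 starts. For CDH1 and CDH17 both ends of the gene were used. Of the 14 starts, 12 had a Pol II region within 1 kb in uninduced cells and 10 in induced cells, so 2 of 12 had no region after induction. Across all genes 2.12% of 13812 such starts had none (293 starts). Of the 12 starts, all had a −log10 q of at least 10, and 0.452% of all starts with such an uninduced region lacked an induced one. No start had Pol II in induced cells alone, against 0.391% of all starts with an induced region. Counted by gene, this was 2 of 8 genes, and 2.46% of 10440 genes with a Pol II region at any start. H3K27ac was listed at 13 of the 14 starts in both conditions, with no start listed in 1 condition alone, against 0.971% and 0.907% of all starts with a region in the uninduced or the induced list. By gene this was 0 of 8 against 1.21%, and for starts with a −log10 q of at least 10 it was 0 of 13 against 0.221%. The Pol II regions at CLDN1 and CLDN2 were weak for promoters: in the band of −log10 q from 10 to 20, 8.96% of 357 starts with an uninduced Pol II region lacked an induced one, as did 10.7% of all 6979 uninduced Pol II regions of that strength. Of the 293 starts that lacked one, 44 had a higher −log10 q than CLDN1 and 54 a higher one than CLDN2.

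**Figure D1:**
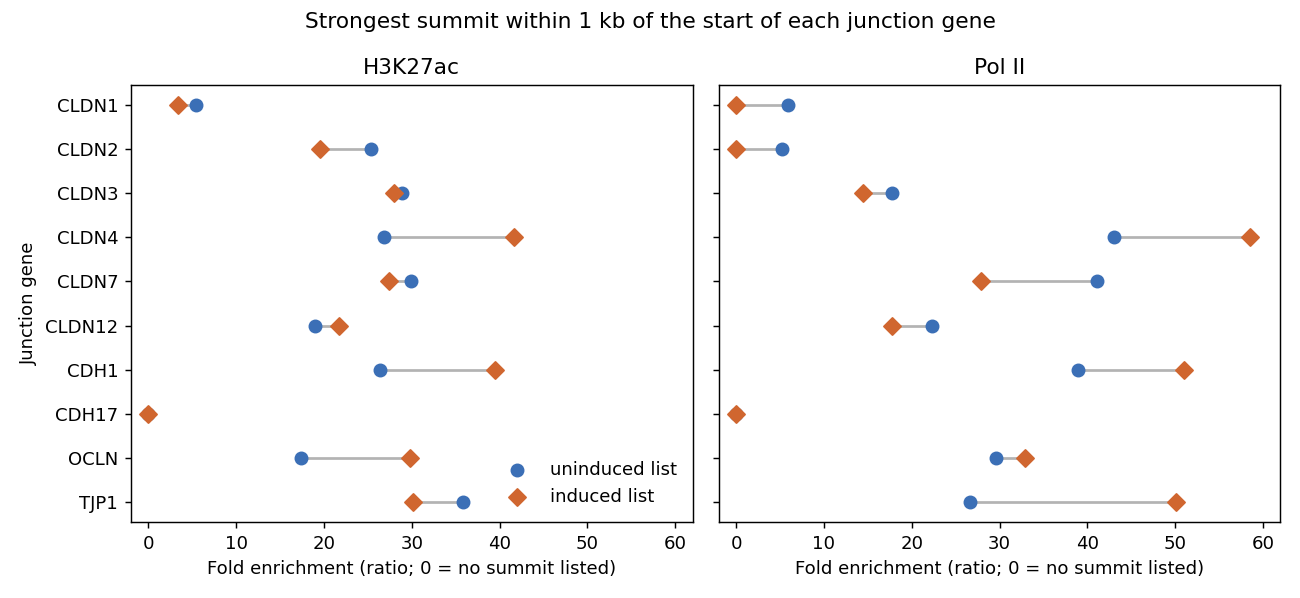
Fold enrichment (x axis, a ratio, 0 where no summit is listed) of the strongest summit within 1 kb of each gene's start, or gene end for CDH1 and CDH17, in the uninduced (circles) and induced (diamonds) lists of H3K27ac and Pol II. For genes with several starts, the start with the highest −log10 q is drawn. Pol II at CLDN1 and CLDN2 has a circle at 5.96 and 5.18 and a diamond at 0, the H3K27ac points of CLDN4 and of CLDN7 belong to different summits in the lists, and the circle of CDH17 lies beneath its diamond at 0 for both marks.

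Promoters of some of the genes are given here for comparison, as the 250 bases before the start, read along the gene's strand from RefSeq (GRCh38.p14). CLDN1 and CLDN2 lacked Pol II in the induced list, whereas CLDN4, CLDN7, OCLN and TJP1 had it in both lists. Capitals mark CACCTG or its reverse complement CAGGTG, the E-box bound by ZEB and SNAI repressors of epithelial genes.
CLDN1, chr3:190322447-190322696, minus strand: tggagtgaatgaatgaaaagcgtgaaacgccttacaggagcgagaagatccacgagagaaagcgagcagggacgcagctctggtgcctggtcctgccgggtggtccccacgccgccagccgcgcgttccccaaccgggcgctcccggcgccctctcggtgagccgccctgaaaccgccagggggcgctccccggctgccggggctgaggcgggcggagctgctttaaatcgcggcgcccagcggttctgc
CLDN2, second start, chrX:106918110-106918359, plus strand: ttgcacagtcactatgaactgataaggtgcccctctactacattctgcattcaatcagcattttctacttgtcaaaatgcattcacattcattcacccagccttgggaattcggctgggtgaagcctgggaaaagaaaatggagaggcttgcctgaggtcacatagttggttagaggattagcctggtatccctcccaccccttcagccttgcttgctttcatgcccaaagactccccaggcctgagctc
CLDN4, chr7:73830746-73830995, plus strand: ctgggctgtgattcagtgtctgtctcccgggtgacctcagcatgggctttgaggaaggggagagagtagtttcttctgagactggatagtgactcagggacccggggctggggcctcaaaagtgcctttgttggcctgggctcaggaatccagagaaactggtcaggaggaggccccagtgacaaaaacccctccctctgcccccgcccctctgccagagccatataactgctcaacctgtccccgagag
CLDN7, chr17:7262479-7262728, minus strand: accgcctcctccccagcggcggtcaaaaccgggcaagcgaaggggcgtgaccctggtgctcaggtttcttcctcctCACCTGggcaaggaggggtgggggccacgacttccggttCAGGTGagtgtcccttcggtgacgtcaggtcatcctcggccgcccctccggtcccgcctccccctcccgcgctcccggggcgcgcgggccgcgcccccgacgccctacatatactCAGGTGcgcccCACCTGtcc
OCLN, chr5:69492297-69492546, plus strand: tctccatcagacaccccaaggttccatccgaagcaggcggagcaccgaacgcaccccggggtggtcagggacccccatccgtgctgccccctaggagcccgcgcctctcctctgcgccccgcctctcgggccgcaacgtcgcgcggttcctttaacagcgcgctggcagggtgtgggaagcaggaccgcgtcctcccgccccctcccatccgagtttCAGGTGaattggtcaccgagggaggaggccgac
TJP1, chr15:29822469-29822718, minus strand: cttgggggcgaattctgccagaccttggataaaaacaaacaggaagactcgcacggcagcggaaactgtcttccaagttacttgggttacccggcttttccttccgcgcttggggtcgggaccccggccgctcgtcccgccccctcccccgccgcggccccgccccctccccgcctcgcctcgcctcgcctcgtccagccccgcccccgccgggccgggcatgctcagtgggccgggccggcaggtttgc
The E-box was found on either strand in 17.1% of 22139 RefSeq promoter windows of the same length. Among the 14 windows of the junction genes it was found 4 times before the CLDN7 start at 7262478, once before each OCLN start and once before the outermost TJP1 start. The TCF and LEF letters CTTTGAT and CTTTGAA, searched on both strands, were in 4.91% of all windows and in none of these 14, which says only that these letters are not in the 250 bases. The promoter of CLDN1 is rich in CpG, with 28 CpG dinucleotides in the window, and that of the second CLDN2 start holds 1. TJP1, CLDN7 and OCLN hold 27, 25 and 24 in the windows printed, and CLDN4 holds 4. The median of all promoter windows was 16, and 79.9% of them held fewer than CLDN1 and 3.2% fewer than the second CLDN2 start. The starts with and without induced Pol II thus both include windows with many and with few CpG.

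CLDN1 (chr3:190305707-190322446, minus strand) seals the tight junction against water and small solutes and lies within the annotated span of CLDN16. In uninduced cells a Pol II region at 190322181-190322591 had a fold enrichment of 5.96 and a −log10 q of 15.6, with its summit 46 bp downstream of the start. The induced list held no Pol II region within the gene. H3K27ac at the start was listed in both conditions, with a fold enrichment of 5.38 and a −log10 q of 13.5 in uninduced cells and 3.39 and 4.86 in induced cells. The strongest H3K27ac region of the window was not at the start but 22.2 kb from the gene, upstream of it and inside CLDN16. There H3K27ac had a fold enrichment of 16.2 at 190344629-190346770 in uninduced cells and 14.7 at 190344603-190346828 in induced cells. Pol II was listed at this distal place in both conditions, with a highest −log10 q of 14.3 and 8.45. The distal pair was thus present under both conditions while the Pol II region at the start was not. Another 4 H3K27ac regions of the CLDN1 window were in the induced list alone, with −log10 q of at most 5.56.

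CLDN2 (chrX:106900164-106930861, plus strand) forms a pore for sodium and water and makes an epithelium leaky. Its second start, at 106918360, had a Pol II region at 106917904-106918876 in uninduced cells with a fold enrichment of 5.18 and a −log10 q of 11.3, and none in induced cells. A second Pol II region inside the gene, at 106927928-106928430, was also in the uninduced list alone, with a −log10 q of 6.40. The share of the gene covered by Pol II regions was 4.81% in uninduced cells and 0% in induced cells. H3K27ac around the second start lay in 1 region of 5145 bp in uninduced cells (−log10 q of 158, fold enrichment of 25.4). In induced cells the same stretch held 2 regions, of 2493 and 1777 bp, the stronger with a fold enrichment of 19.5. and a −log10 q of 95.7 The first start, at 106900164, had H3K27ac in both lists, with a −log10 q of 19.3 and 12.3, and Pol II in neither. A further H3K27ac region ran over the downstream end of the gene for 10.85 kb in uninduced and 10.86 kb in induced cells, with 13 and 15 summits. Within 50 kb, CLDN2 therefore had 15 and 17 H3K27ac regions, covering 36.9 and 31.4 kb, and had 4 and 2 Pol II regions.

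**Figure D2:**
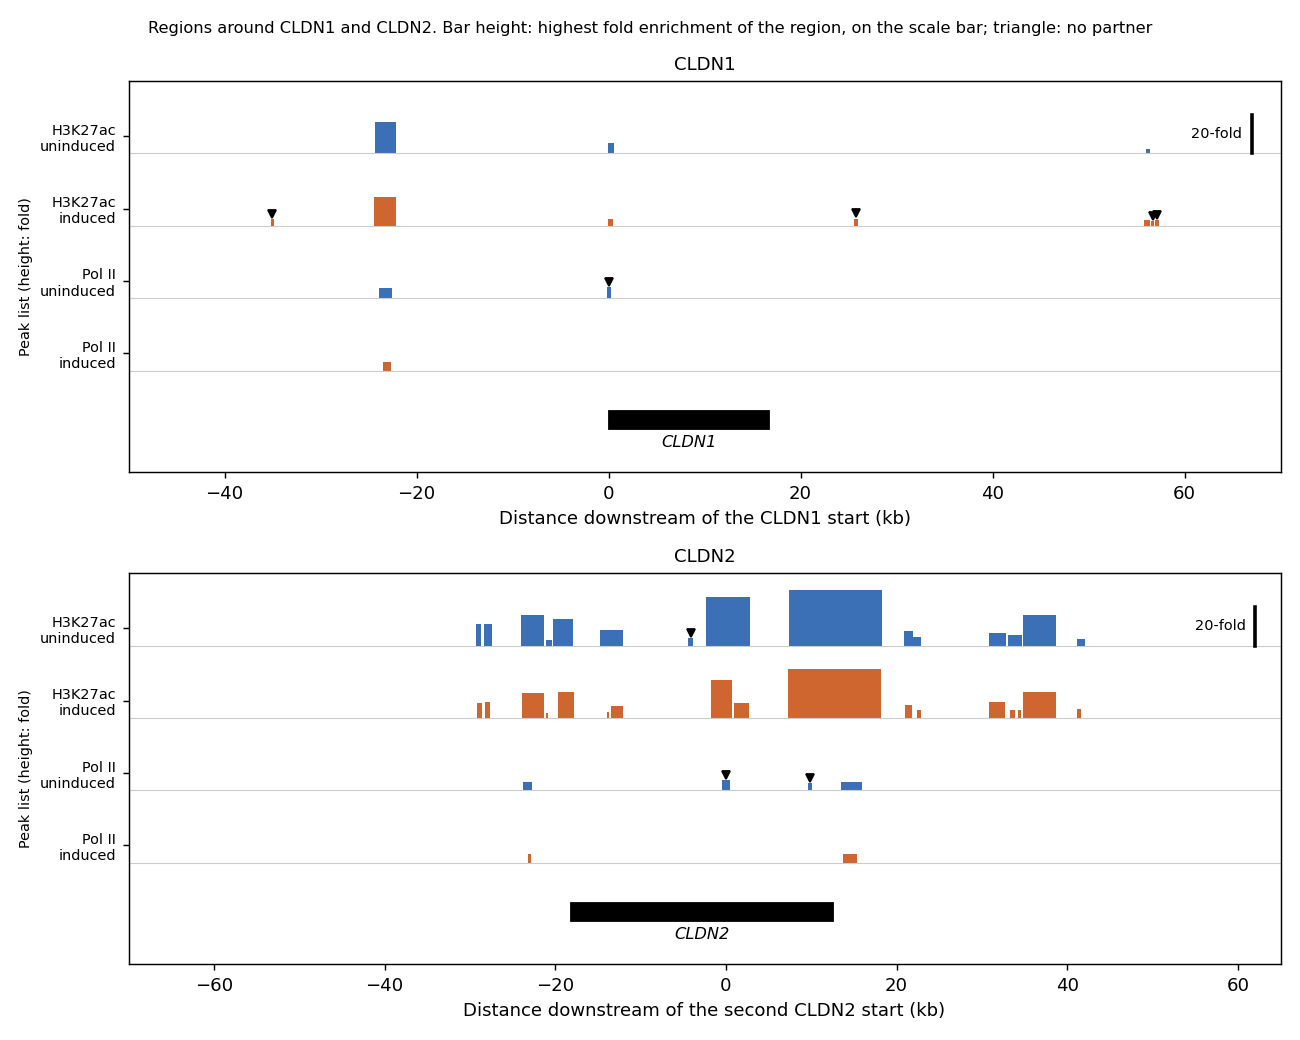
Regions of each list within 50 kb of CLDN1 (distance from its start) and CLDN2 (distance from its second start), in kb with downstream to the right. Bar height is the region's highest fold enrichment on the scale bar, each row is a list (uninduced in blue, induced in orange), and triangles mark regions without a partner. At position 0 of either gene, Pol II has a bar with a triangle in the uninduced row and no bar in the induced row, while H3K27ac has bars in both.

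CLDN3 (chr7:73768997-73770270, minus strand) and CLDN4 (chr7:73830996-73832690, plus strand) are barrier-forming claudins 60.7 kb apart, and both also serve as receptors for the Clostridium perfringens enterotoxin. At the CLDN3 start H3K27ac had a fold enrichment of 28.9 in uninduced and 28.0 in induced cells, with a −log10 q of 189.7 and 158. Pol II at the same start had a fold enrichment of 17.8 and 14.5, with a −log10 q of 155 and 91.5. CLDN4 had the strongest Pol II summit of the 10 genes in both lists. That summit, 60 bp downstream of the start in uninduced cells and 47 bp in induced cells, had a −log10 q of 443 and 415 and a fold enrichment of 43.1 and 58.6. The 2 measures thus ran in opposite directions between the lists at CLDN4, the −log10 q being lower and the fold higher in the induced list. H3K27ac at CLDN4 formed 1 region of 14.45 kb with 17 summits in uninduced cells and of 14.69 kb with 16 summits in induced cells, longer than 99.74% and 99.78% of the regions of those lists, whose medians were 1.16 and 1.04 kb. Its strongest summit near the start was at position 901 downstream in uninduced cells and at position -439, upstream, in induced cells, counted in bp from the start, so the folds of 26.9 and 41.6 belong to different summits. Pol II regions covered the whole of CLDN4 in both conditions. Between both genes lay 4 H3K27ac regions of the uninduced list and 5 of the induced list that fall in both 50 kb windows. The strongest of these, at 73798367-73801318 in uninduced and 73798244-73801351 in induced cells, had a −log10 q of 203 and 179, with Pol II there at 100.3 and 63.2.

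**Figure D3:**
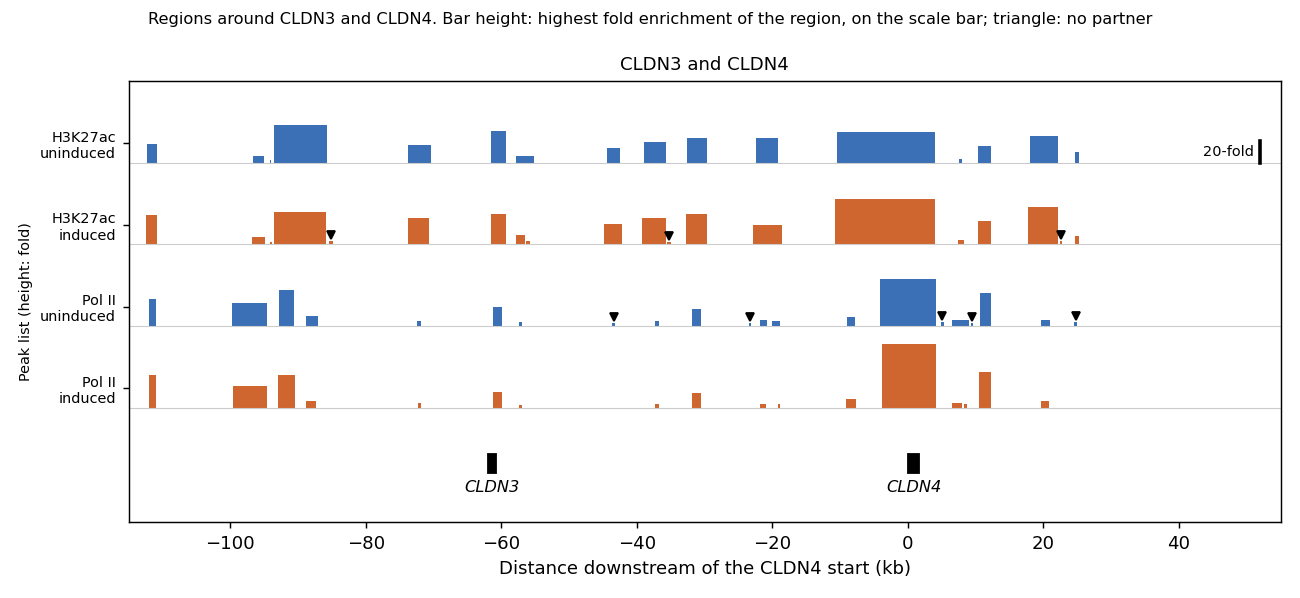
Regions of each list around CLDN3 and CLDN4, plotted by distance downstream of the CLDN4 start in kb, with bar height as the region's highest fold enrichment on the scale bar and triangles at regions without a partner. The wide bar over CLDN4 is the H3K27ac region of 14.45 kb (uninduced) and 14.69 kb (induced), and every tall bar of 1 condition has a counterpart in the other.

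CLDN7 (chr17:7259903-7263213, minus strand) lies mostly on the basolateral membrane, in complex with EPCAM. At its start at 7262478 Pol II had a −log10 q of 403 and a fold enrichment of 41.1 in uninduced cells, and 296 and 27.9 in induced cells. The Pol II region there ran for 14.33 kb in uninduced and 13.78 kb in induced cells and also held ends of the neighbours ELP5 and CTDNEP1, so the region is not that of CLDN7 alone. The strongest H3K27ac summit of the gene had a −log10 q of 293 with a fold enrichment of 29.9 in uninduced cells, and 285 with 38.4 in induced cells. Within 1 kb of the start the strongest summits were 996 bp downstream in uninduced cells and 341 bp downstream in induced cells, so their folds of 29.9 and 27.5 belong to different summits. The 50 kb around CLDN7 held the most Pol II regions of the 10 windows, 18 and 20, and many lay at the ends of DVL2, PHF23, GABARAP, CTDNEP1, ELP5 and EIF5A. CLDN12 (chr7:90403461-90415954, plus strand), a widely expressed claudin, had the opposite setting, with 2 and 3 H3K27ac regions and 3 and 1 Pol II regions in its window. At its start H3K27ac had a −log10 q of 118 and 111 with a fold enrichment of 18.9 and 21.7, and Pol II had 154 and 95.3 with 22.3 and 17.7. The 2 Pol II regions listed only in uninduced cells lay 7.89 and 6.55 kb upstream of the gene, with a −log10 q of 3.19 and 4.05.

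OCLN (chr5:69492547-69558104, plus strand) encodes occludin, which spans the membrane at the contacts where cells meet. Its starts at 69492547 and 69492790 share 1 region of each mark. The H3K27ac summit with the highest −log10 q there had 149.7 and a fold enrichment of 17.3 in uninduced cells, and 192 and 29.8 in induced cells. The highest fold enrichment of the region was 22.6 in uninduced and 29.8 in induced cells. Pol II had a −log10 q of 265 and 209 and a fold enrichment of 29.6 and 32.9. Inside the gene H3K27ac regions near 69516651-69522102 had a −log10 q of 129.5 in uninduced and 159 in induced cells, and those near 69526671-69529249 had 67.5 and 101. At these 3 places the H3K27ac values were larger in the induced list, and at others they were smaller. Inside the gene the region at 69501797-69503154 had a −log10 q of 19.0 and its induced partner 9.54, and the one at 69499012-69500915 had 13.1 and 11.4. Outside the gene the region at 69442286-69445289, at an end of MARVELD2, had 77.6 and 40.0, the one at 69456628-69457348 had 29.7 and 9.64, and the one at an end of GTF2H2C had 124.5 and 112. The Pol II region at the end of GTF2H2C, 0.939 kb from OCLN in uninduced cells, had a −log10 q of 274 and 137. The genome also holds the pseudogene OCLNP1 (chr5:71074203-71093070), and the labels do not say how reads that match both copies were placed. The OCLN values are uncertain to that extent.

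TJP1 (chr15:29699367-29969049, minus strand) is the PDZ scaffold that binds claudin tails and organises the strands. The starts at 29821479 and 29822468 shared the strongest summits. H3K27ac had a −log10 q of 255 and a fold enrichment of 35.9 in uninduced cells and 184 and 30.1 in induced cells. Pol II had a −log10 q of 329 and 344 and a fold enrichment of 26.6 and 50.1, so the marks differed in which list held the larger value. The start at 29820674 lay at the edge of the same H3K27ac regions, and the Pol II regions began upstream of it, within 1 kb. The outermost start, at 29969049, had neither mark in either list. Inside the gene the H3K27ac region at 29734118-29737552 had a −log10 q of 155 in uninduced cells, and the one at 29734118-29736756 had 121 in induced cells. An H3K27ac region at 29917432-29917820, listed only in induced cells, had a −log10 q of 8.37, the highest of any H3K27ac region without a partner in the 10 windows.

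CDH1 (chr16:68737292-68835537) encodes E-cadherin, the main adhesion receptor of epithelial adherens junctions. At its lower end Pol II had a −log10 q of 387 and a fold enrichment of 38.9 in uninduced cells, and 352 and 51.0 in induced cells. H3K27ac there had a −log10 q of 248 and 262 and a fold enrichment of 26.4 and 39.4. The H3K27ac region was 12.27 kb long with 15 summits in uninduced cells (68736113-68748379) and 16.47 kb with 20 summits in induced cells (68736137-68752602). A separate region followed it, at 68748546-68756300 in uninduced cells and at 68752694-68756249 in induced cells. The acetylated stretch thus had nearly the same ends in both lists and was split at different points. A weaker Pol II region just beyond the upper end of the gene, at 68836161-68841621 in uninduced cells, had a −log10 q of 26.4, and its induced partner ran from 68836610 to 68841327. Below CDH1 the H3K27ac regions at 68719978-68723975 and 68730056-68735286, the latter at an end of CDH3, had a −log10 q of 171 and 184 in uninduced cells and 109.9 and 114 in the induced regions there.

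CDH17 (chr8:94127162-94217278) encodes LI-cadherin, an adhesion molecule of intestinal epithelium. Neither end of the gene had a region of either mark within 1 kb in any list. H3K27ac lay inside the gene, where a region of 9.35 kb at 94204728-94214081 had a −log10 q of 274 in uninduced cells and 1 of 9.43 kb at 94204825-94214255 had 216 in induced cells. Pol II in the same stretch was weak, with a highest −log10 q of 29.2 in uninduced cells and 13.4 in induced cells, and 5 Pol II regions inside the gene in both lists. The strongest Pol II region of the window, at the end of GEM, lies 44.6 kb away. CDH17 therefore paired long acetylation with little Pol II, while the Pol II summit of CDH1 stood at its gene end. No start of CDH17 was in the promoter entries, so a start inside the gene was not examined.

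**Figure D4:**
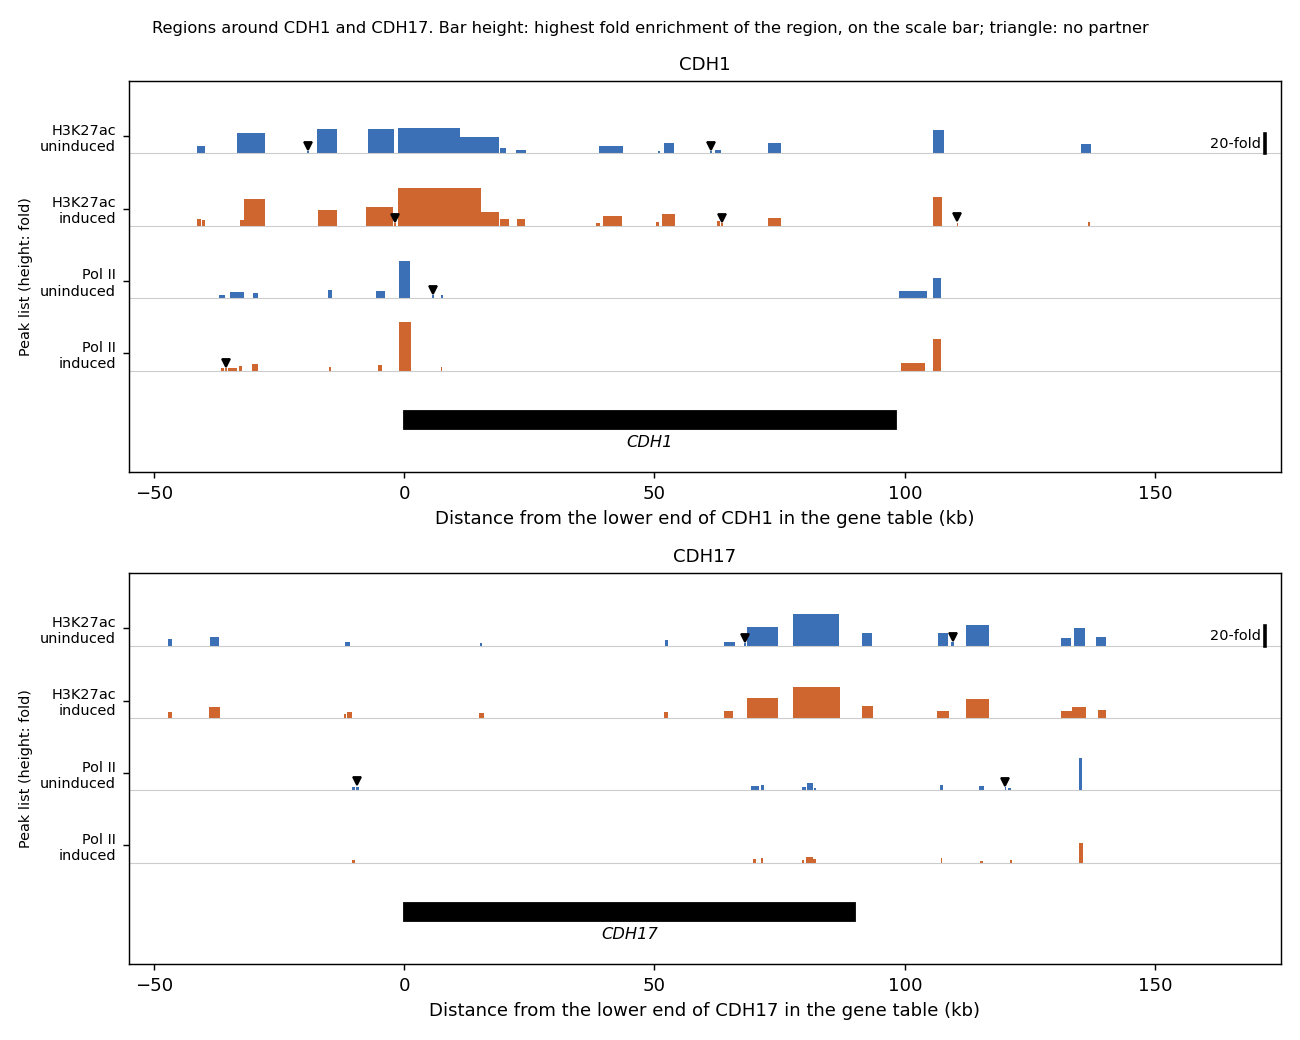
Regions of each list within 50 kb of CDH1 and CDH17, by distance from the gene's lower end in kb, with bar height as the region's highest fold enrichment on the scale bar and triangles at regions without a partner. CDH1 has tall bars of both marks at 0, and CDH17 has wide H3K27ac bars inside the gene over low Pol II bars.

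Across the 10 windows together, counting a region in 2 windows once, H3K27ac had 114 regions with 345 summits in uninduced cells and 132 with 380 in induced cells. Pol II had 87 regions with 197 summits and 76 with 177. Of the H3K27ac regions, 7 of 114 (6.14%, Wilson 95% interval 3.01 to 12.13) had no partner in uninduced cells and 20 of 132 (15.15%, 10.03 to 22.25) in induced cells, against 14.5% and 12.3% of the whole lists. Of the Pol II regions, 23 of 87 (26.44%, 18.31 to 36.56) had no partner in uninduced cells and 4 of 76 (5.26%, 2.07 to 12.77) in induced cells, against 30.4% and 10.8% of the whole lists. The intervals cover counting error only. They treat regions as independent, though regions share windows, and are no test against the whole lists. For H3K27ac the median −log10 q in the windows was 36.7 in uninduced and 24.2 in induced cells, beside 21.3 and 17.8 in the whole lists. For Pol II it was 12.05 and 9.95, beside 9.0 and 8.13. Whether this difference in strength accounts for the shares was not tested. The Pol II list of induced cells is the shorter one as a whole, with 50665 regions against 57247. Nearly all regions without a partner were weak. The highest −log10 q among them was 6.33 for H3K27ac in uninduced cells, 8.37 for H3K27ac in induced cells and 2.35 for Pol II in induced cells. In the Pol II list of uninduced cells it was 15.6, and the 2 regions there with a −log10 q of at least 10 were the starts of CLDN1 and CLDN2. That is 2 of 47 regions of this strength, beside 2.95% in the whole list. In the other lists it was 0 of 82 and 0 of 88 for H3K27ac in uninduced and induced cells, beside 2.22% and 0.883%, and 0 of 38 for Pol II in induced cells, beside 0.109%. Many regions in the windows belong to other genes: of 68 and 82 H3K27ac regions outside the junction genes, 21 and 23 lay within 1 kb of an end of another gene, and of 65 and 60 Pol II regions, 19 and 20 did.

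Pol II regions covered slightly less of most junction genes in induced cells, as they did of most genes. Coverage here means what percent of the gene lies under Pol II regions, and 8 of the 10 genes were long enough (2 kb) and covered. It was lower in the induced list for 7 of them and equal for CLDN7, while it was lower for 77.9% of all 14087 genes scored. The 8 genes had a median difference of -0.562 percentage points, beside -0.507 over 14087 genes. None of the 8 lay over 25 points from that median, a distance passed downward by 0.816% of all genes and upward by 0.0284%. Apart from CLDN7, the scored genes were covered for at most 6.275% in uninduced cells. They could not have fallen by that distance even with all coverage lost, so the absence of a fall past it says nothing about them. CLDN1 was covered for 1.59% in uninduced and 0% in induced cells. CDH17 was covered for 5.13% and 3.35%, OCLN for 3.48% and 2.82%, CDH1 for 2.06% and 1.60%, and TJP1 for 1.16% and 0.881%. These small shares show that, outside CLDN7, CLDN4 and CLDN3, Pol II regions were limited to short stretches of the genes.

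Each gene was also placed by the highest −log10 q of its summits among all genes with a summit of that mark in either list, as a percentile. For Pol II the order was wide: CLDN4 stood at 99.2 in uninduced and 99.7 in induced cells and CDH1 at 96.9 and 98.7, while CLDN1 stood at 9.38 and 1.39 and CLDN2 at 7.39 and 1.39. The last place is that of genes with no induced summit. CLDN7 (97.8 and 95.6), TJP1 (89.7 and 98.4) and OCLN (74.0 and 76.9) were also high, CLDN3 (36.7 and 31.1) and CLDN12 (36.5 and 32.3) stood in the lower part, and CDH17 (13.3 and 11.8) was near the foot. No junction gene differed by over 20 percentile points for Pol II, a distance passed downward by 2.65% and upward by 1.93% of 14623 genes. CLDN1, CLDN2 and CDH17 stood below 20 in uninduced cells and could not have fallen by that distance, even with no induced summit. CLDN4, CLDN7, CDH1 and TJP1, at 89.7 or above, could not have risen by it. For H3K27ac, OCLN stood at 43.0 and 66.9 and TJP1 at 86.9 and 63.2, differences past 20 points, which 2.79% of 15161 genes passed upward and 3.3% downward. CLDN2 stood at 46.7 and 29.0 and CDH17 at 92.2 and 77.1. From summits within 1 kb of a gene end alone, the direction turned for CLDN2, whose difference in H3K27ac place was then 8.68 in place of -17.62, and for TJP1 in Pol II place, -0.80 in place of 8.69. The gene ends leave out the second start of CLDN2 and the TJP1 starts at 29821479 and 29822468, so these values do not describe those starts. From summits within the gene or 10 kb of it, CLDN2 turned in Pol II place, 0.19 in place of -6.00. CLDN1 was at the foot for H3K27ac as well, at 6.70 and 3.23, and could not have fallen by 20 points there either. Ranked by fold in place of −log10 q, OCLN differed by 15.8 points, under that distance. By fold, the differences in H3K27ac place were -33.0 for CLDN2, 21.3 for CLDN4 and 21.4 for CDH1, and in Pol II place they were -26.7 for CLDN7 and 40.0 for TJP1. Under that ranking 2 of the 10 genes passed 20 points downward and 2 upward for H3K27ac, beside 12.2% and 13.1% of all genes, and 1 passed each way for Pol II, beside 11.5% and 12.0%.

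**Figure D5:**
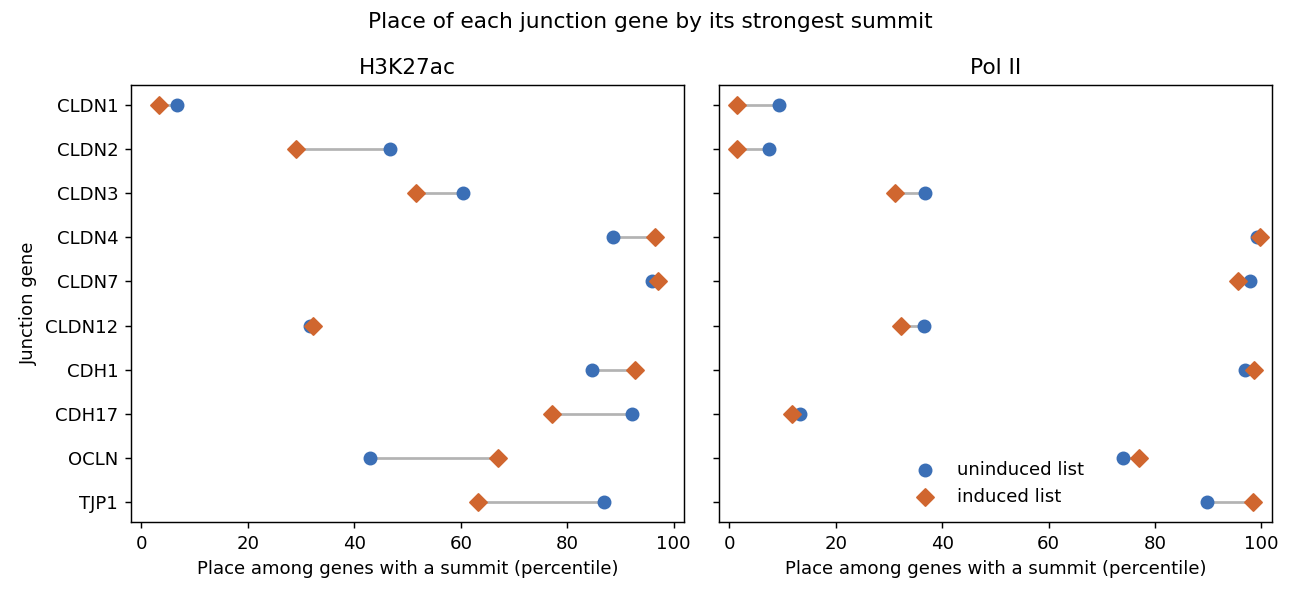
Percentile place (x axis) of each junction gene by the highest −log10 q of its summits, among 15161 genes for H3K27ac and 14623 for Pol II, in the uninduced (circles) and induced (diamonds) lists. The longest lines are those of OCLN and TJP1 for H3K27ac, from 43.0 to 66.9 and from 86.9 to 63.2, and CLDN1 and CLDN2 are at the low end for Pol II.

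The other 50 junction genes, listed by role (further claudins, JAM and MARVEL proteins, polarity proteins, catenins, nectins and desmosomal genes), gave a reference for these values. Promoter entries were found for 30 of them, with 46 starts; Pol II was at 26 starts in both conditions and at none in 1 condition alone. For H3K27ac 27 starts were listed in each condition, with 1 start of PRKCZ in uninduced cells alone and 1 of CLDN14 in induced cells alone. Pol II coverage was lower in induced cells for 32 and higher for 10 of 42 scored genes, with a median difference of -0.294 points and none over 25 points from the median of all genes. A gene covered for less than 25% in uninduced cells could not have fallen by that distance. The largest differences were -16.4 points for CLDN15, -13.6 for MARVELD3, a tight junction MARVEL protein, and -6.05 for the scaffold TJP3, and on the other side 4.15 for CLDN5, 3.24 for CLDN23 and 0.961 for cingulin (CGN). For H3K27ac no gene of 42 differed by over 20 percentile points. CXADR (-17.3), MAGI1 (-14.0) and the desmoglein DSG2 (-12.1) had the most negative differences in place, and TJP3 (18.5), the desmocollin DSC2 (17.4) and CRB3 (15.7) the most positive. For Pol II, the place of CLDN15 was lower in the induced list by more than that (-33.1), and the place of CTNNA1, which encodes α-catenin, was higher (23.7). Both were named after their values were seen.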

How the data were processed

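The 8 ChIP-seq samples with an antibody and 2 inputs of DLD1 cells were made into 4 peak lists, each deposited for both samples of a group. The 24 RNA-seq samples were not analysed here. The submitters' processing notes name, without roles, MACS2 2.1.1.20160309, deepTools 3.5.0, SAMtools 1.10 and BWA 0.7.17-r1188, and the builds hg19 and hg38. The positions are on GRCh38. The authors' lists hold a −log10 q and a fold enrichment, which is a ratio over background, for each summit. The deposited −log10 q begin at 1.30. For caller settings, pooling of samples and reads mapping to several places, nothing is stated in the labels. The depth was 40 to 55M reads of 75 bp per sample, per the labels, and both values depend on it.

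Rows of 1 region were collapsed to its highest −log10 q and fold. Coordinates are 1-based, and the 22 autosomes and X were used. Counts of overlaps (at least 1 bp) equalled those of bedtools 2.31.1, and the scripts (Python 3.11.15, pandas 2.3.3) were tested on simulated data. Genes and promoters came from RefSeq (GRCh38.p14). A region was at a start when within 1 kb of it. Values at a start are those of the summit within 1 kb that had the highest −log10 q. The text names the 10 genes, neighbours in their windows, and of 50 other junction genes up to 3 with the largest difference each way in Pol II coverage and H3K27ac place. Some results on other junction and marker genes are not reported here. Summit windows were not searched for motifs, since no genome was used. Members and lists were chosen with earlier results of these data known. Alternatives were other windows, overlaps, limits on −log10 q, and ranking by fold.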

Additional observations from a re-analysis of the deposited data

How the results depend on the processing

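No paired analysis was possible because each condition has 1 list for both samples and no test was made. With 500 bp at starts or a −log10 q of at least 5 or 10, Pol II was at a start of 9 genes in uninduced and 7 in induced cells, as in the report. H3K27ac was at 9 and 9, or at 9 and 8 under either limit, since CLDN1 had 4.86 in induced cells. Values below are for H3K27ac uninduced and induced, then Pol II uninduced and induced. Windows of 10 kb held 64, 72, 45 and 33 regions with 217, 232, 106 and 85 summits, as smaller windows hold fewer. Regions without a partner numbered 7, 20, 23 and 4. They numbered 4, 11, 15 and 1 within 10 kb, 2, 8, 12 and 1 when a partner within 1 kb counted, 1, 3, 8 and 0 at a −log10 q of at least 5, and 0, 0, 2 and 0 at a limit of 10, which was chosen after seeing the data. Requiring overlap of at least 50% of a region gave 13 for H3K27ac uninduced. At a −log10 q of at least 5, Pol II coverage was higher in the induced list for 1 gene, against 0. Ranked by fold, 2 genes passed 20 percentile points down and 2 up for H3K27ac, against 1 and 1, and 1 each way for Pol II, against 0, with the shares of all genes given in the report. With summits near gene ends alone, 0 passed downward for H3K27ac, since TJP1 then had no place. Among differences of single genes, 5 newly passed 20 points and 1 (OCLN) no longer did, all by fold. The cause of the other differences was not tested. List length and −log10 q depend on depth, so a weak region missing from a list is not shown to be absent.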
